A study of Caenorhabditis elegans with 2 samples.

Results

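The cytosolic ribosomal protein genes of Caenorhabditis elegans were examined for binding of CEH-45, a homeodomain protein of the goosecoid class, by chromatin immunoprecipitation and sequencing (ChIP-seq). They were taken as every protein-coding gene whose symbol begins with rpl- (large subunit) or rps- (small subunit), which gave 78 of 19973 nuclear protein-coding genes, 47 of the large and 31 of the small subunit. The chromatin was that of whole embryos (late embryonic stage, age label 2 hours, obtained by egg bleaching) of strain RW12292, which carries the CRISPR insertion st12292[ceh-45::TY1::EGFP::3xFLAG]. All samples carry the tagged allele, the tagged protein was precipitated through GFP, although the antibody label reads ceh-45, and no untagged strain or second condition was analysed here. The series has 1 group of 2 biological replicates. Whole embryos mix all cell types, so which cells carry a peak cannot be told apart. The labels do not say whether the strain was outcrossed or is 1 clone.

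Each ribosome is built from a large subunit, which joins amino acids into protein, and a small subunit, which reads the messenger RNA. Each subunit is made of ribosomal RNA and a set of ribosomal proteins, most of which come from a single gene in the worm. The proteins are needed in nearly equal amounts, and their genes are among the most strongly transcribed in growing cells. For homeodomains of the goosecoid class, the preferred core is TAATCC.

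Of the 78 ribosomal protein genes, 12 had a peak that passed the authors' reproducibility threshold, a share of 15.4% (exact binomial 95% interval 8.21 to 25.3, counting error only), beside 2.15% of all protein-coding genes. A peak was given to a gene when its summit lay no more than 2000 bp before or 500 bp after one of the gene's annotated transcript starts. A passing peak is one of the 548 peaks in the larger of the authors' thresholded sets for the series, in which the IDR, or irreproducible discovery rate, an estimate of how many peaks down to that rank would not repeat, is at most 0.01. The thresholded sets list an additional input that their notes do not describe, so the IDR may not be the whole of what passing requires. The genes were rpl-3, rpl-7A, rpl-12, rpl-15, rpl-20 and rpl-35 of the large subunit and rps-1, rps-16, rps-19, rps-22, rps-24 and rps-28 of the small subunit. Their 12 peaks were distinct, but 10 of them also lay within reach of another protein-coding gene. In the ranked list of 108916 candidates behind that set, 77 of the 78 genes had at least 1 candidate in the window, beside 90.1% of all protein-coding genes, and the median gene had 4 candidates, beside 3 over all protein-coding genes. The genes' candidates came to 280 assignments of 272 distinct peaks. The gene with none was rpl-28, whose nearest candidate summit lay at −7204 bp with a signal of 2.39; replicate 2's own ranked list held 1 candidate in its window.

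The strongest peaks stood before rpl-3, rpl-15 and rpl-35. Signal means the value the authors gave a peak, used here to rank peaks within 1 list and, with its scaling not stated, set side by side between the replicates' lists, and a position is the distance of the summit from the nearest annotated start of the gene, negative when upstream. The peak of rpl-3, which encodes a protein lying close to the site where amino acids are joined, had a signal of 163 at −294 bp and an IDR of 0.000412, rank 53 among the 548 passing peaks by signal. The peak of rpl-15, also of the large subunit, had a signal of 157 at −354 bp and an IDR of 0.000489. The peak of rpl-35, a large subunit protein near the exit of the peptide tunnel in yeast ribosomes, had a signal of 139 at −451 bp and an IDR of 0.000678. Of the 12 passing peaks of ribosomal protein genes, only these 3 were within the 137 highest signals of the 548, which is the same share. They were also the only 3 of the 78 genes with a peak at an IDR of at most 0.001, against 0.451% of all protein-coding genes. The next 3 in order of signal were small subunit genes, at 108 for rps-28 (−431 bp), 105 for rps-24 (−327 bp) and 100.5 for rps-19 (−287 bp).

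The bases under some of the 12 summits, with and without a recurring word, are printed below. The windows of rps-1 and rpl-20 hold the word but rank only 304 and 305 among the 548 passing peaks by signal. That of rps-19, with a higher signal at rank 183, lacks the word and is not printed. Each line below holds the summit base and 50 bp on each side, read from the RefSeq sequence of WBcel235 (coordinates of build ce11) on the strand of the ribosomal protein gene. The capitals mark the word AAGTGT or its reverse complement ACACTT, which together with GCACAC was the word of 6 bases found in the most of the 12 windows, and which was chosen after these windows were seen. The windows are chrIII:3867510-3867610 (plus strand), chrIV:654880-654980 (minus), chrIII:7854633-7854733 (plus), chrIII:4475620-4475720 (plus) and chrIV:4749994-4750094 (minus), which hold the word. They are followed by chrIV:1659210-1659310 (plus) and chrIV:385510-385610 (plus), 2 strong peaks without it. Both of these windows hold GCACAC.
rpl-3: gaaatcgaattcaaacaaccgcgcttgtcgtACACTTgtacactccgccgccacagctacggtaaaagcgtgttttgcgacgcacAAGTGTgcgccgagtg
rpl-15: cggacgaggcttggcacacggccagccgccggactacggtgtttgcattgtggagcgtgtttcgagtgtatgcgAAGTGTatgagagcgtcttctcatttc
rpl-35: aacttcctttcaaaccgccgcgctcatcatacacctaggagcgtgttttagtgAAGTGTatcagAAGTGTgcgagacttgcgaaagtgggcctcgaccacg
rps-1: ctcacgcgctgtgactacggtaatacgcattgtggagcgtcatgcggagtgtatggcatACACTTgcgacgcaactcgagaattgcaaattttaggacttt
rpl-20: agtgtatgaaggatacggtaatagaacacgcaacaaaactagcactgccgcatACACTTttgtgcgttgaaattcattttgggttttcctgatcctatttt
rps-28: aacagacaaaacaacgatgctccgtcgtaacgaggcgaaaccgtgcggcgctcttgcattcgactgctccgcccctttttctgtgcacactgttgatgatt
rps-24: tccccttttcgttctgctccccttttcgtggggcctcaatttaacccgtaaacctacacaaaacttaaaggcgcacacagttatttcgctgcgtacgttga

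AAGTGT lay in 6 of the 12 windows at passing peaks of ribosomal protein genes, those printed with capitals and that of rps-16. It lay in 3.23% of the 62 distinct windows at the highest peaks of the other ribosomal protein genes, in 7.30% of all 548 passing peaks and in 6.17% of 108212 candidates that did not pass. The rpl-3 and rpl-35 windows each held it at 2 places. GCACAC (or GTGTGC) was also in 6 of the 12 windows, beside 9.49% of all passing peaks, and CGCTCC (or GGAGCG) was in 5 of 12, beside 8.06% of the windows of the other ribosomal protein genes and 7.85% of all passing peaks. AGTGTA (or TACACT) was in 5 of 12 and overlaps AAGTGT by 5 bases. CGCACA (or TGTGCG) was in 5 of 12 and overlaps GCACAC by 5 bases. These words were picked because they recur in these windows, so their counts are descriptions with no test. A match is no binding site by itself.

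Longer stretches were shared by pairs of these windows. The windows of rpl-15 and rps-1, on different chromosomes, share the 14-base run GCATTGTGGAGCGT in the same orientation relative to the gene, and the whole assembly holds this run at those 2 places only. The windows of rpl-7A and rps-22 share the 16-base run AACGTTGAATACTCAG in opposite orientation. That run has 16 copies in the assembly and lay in 3 of the 548 passing windows and 4 of the 108212 windows that did not pass. The windows of rpl-15 and rpl-35 share GGAGCGTGTTT, and those of rpl-12 and rps-24 share TTCGCTGCGTA, which have 57 and 91 copies in the assembly. No other pair among the 11 windows compared shared a run of 11 bases or more; the window of rps-19 was not used in this comparison.

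Of 6 words sought from outside these windows, 1 was found in them. These 6 words were chosen with earlier results of these data known. TAATCC, the goosecoid-class core, was in 0 of the 12 windows, beside 2.55% of all passing peaks and 3.66% of the candidates that did not pass, each on either strand. TAATTA, a core of many homeodomains, was also in 0 of 12, beside 0.912% of all passing peaks. GGGCGG was in 1 window, that of rps-28, beside 8.03% of all passing peaks. GAGAGA was in 0 of 12, beside 11.9% of all passing peaks, and GCGCAA was in 0 of 12, beside 10.2%. The word GTTCGA, from the inner promoter of tRNA genes, was in 0 of 12, beside 16.2%. With 12 windows, counts of 0 or 1 do not separate these genes from shares this low. In 601 bp of promoter sequence per gene, TAATCC was in 1 of the 12 genes with a passing peak, 9 of the 66 without one and 18.1% of all protein-coding genes, and TAATTA was in 1 of 12, 20 of the 66 and 28.7% of all. GAGAGA was in 6 of 12 promoters, 27 of the 66 and 33.9% of all, GCGCAA was in 4 of 12, 10 of the 66 and 13.2% of all, and GTTCGA was in 2 of 12, 16 of the 66 and 19.3% of all. GGGCGG was in 5 of the 12 genes with a passing peak, 4 of the 66 without one and 12.4% of all protein-coding genes. AAGTGT was in 7 of those 12 promoters, 24.2% of the 66 and 33.0% of all, and CGCTCC was in 8 of 12, 22.7% of the 66 and 9.67% of all. Both words were picked from the 12 summit windows, and 11 of the 12 summits lay inside the promoter stretch. Their promoter counts in the 12 genes are therefore largely given by that choice. A word that is missing from a window says only that those letters are not there.

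The windows at the 12 passing peaks had a higher mean G and C content than those at the highest peaks of the other ribosomal protein genes, with overlapping ranges. The 12 windows held 49.3% ± 5.24 G and C (SD), from 38.6% at rpl-20 to 56.4% at rpl-15. The 62 windows at the highest peaks of the other ribosomal protein genes held 42.6% ± 8.61, from 23.8% to 57.4%. All 548 passing windows held 49.8% ± 8.18 and the 108212 that did not pass held 38.2% ± 8.79. The mean at these genes lay within 1 SD of that of the passing set, and the part of base composition in the signal was not tested.

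**Figure D1:**
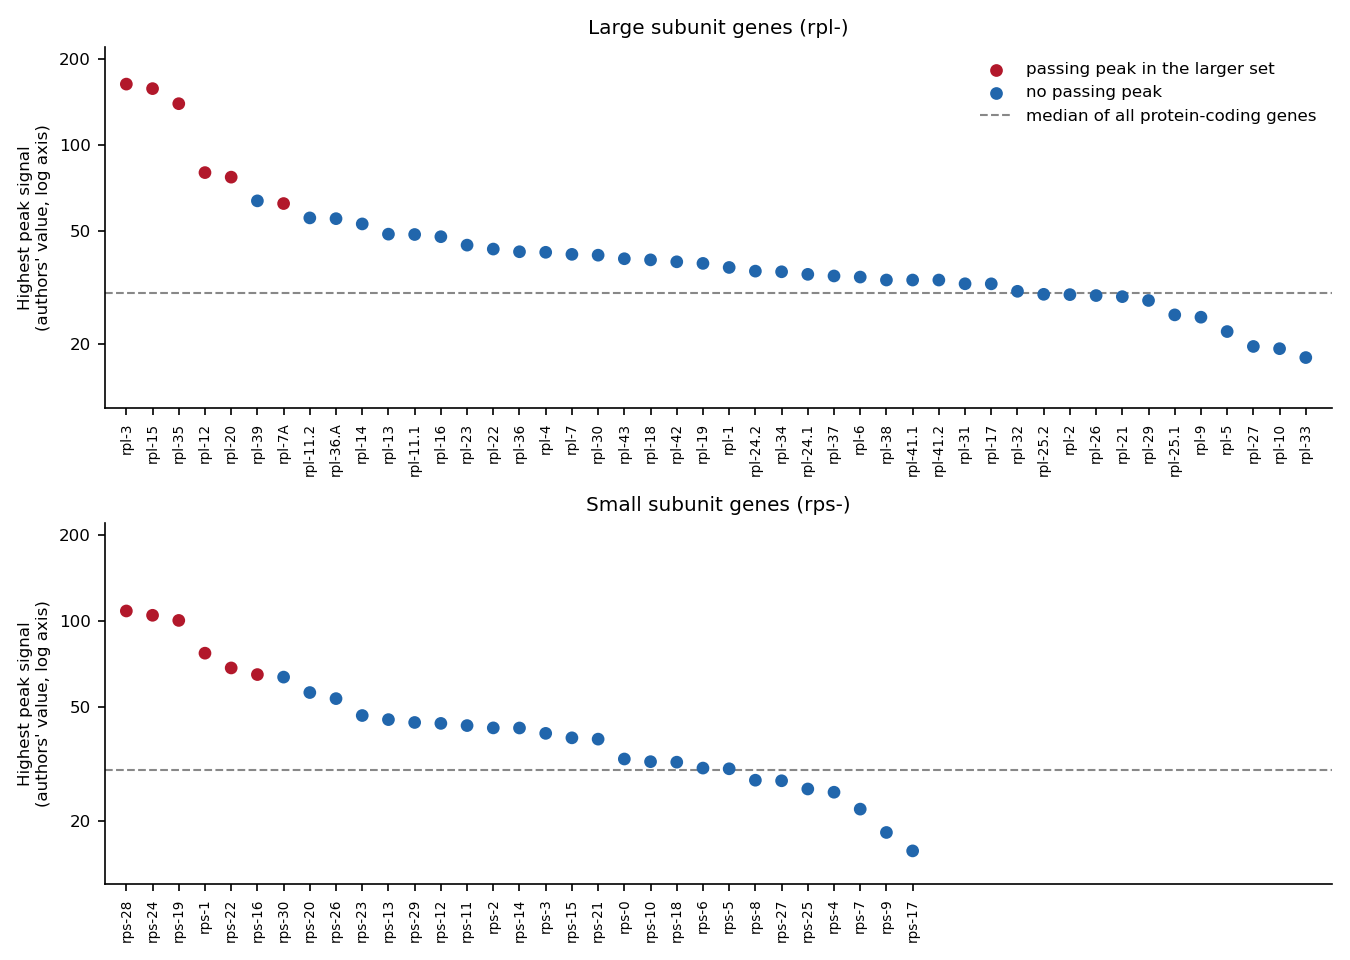
Highest peak signal within the window of each ribosomal protein gene (authors' value, log axis), with large subunit genes in the upper panel and small subunit genes in the lower, each ordered by signal; rpl-28, with no candidate, is left out. Red points are the 12 genes with a passing peak, from 163 at rpl-3 to 62.3 at rpl-7A, blue points are the others, and the dashed line is the median of all protein-coding genes, 30.2.

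The positions of all 12 peaks are given on build ce11. On chromosome III the peaks lay at chrIII:3867408-3867711 for rpl-3, chrIII:7854531-7854834 for rpl-35, chrIII:4475518-4475821 for rps-1 and chrIII:1950300-1950603 for rps-22. On chromosome IV they lay at chrIV:654778-655081 for rpl-15, chrIV:13240531-13240834 for rpl-12, chrIV:4749892-4750195 for rpl-20, chrIV:4390497-4390800 for rpl-7A, chrIV:1659108-1659411 for rps-28 and chrIV:385408-385711 for rps-24. The peak of rps-16 lay at chrV:15002209-15002512 and that of rps-19 at chrI:9625931-9626234. All are 304 bp wide. By the Ensembl annotation 11 of the 12 summits were intergenic, and that of rps-1 lay inside the noncoding RNA gene F56F3.10. Chromosomes III and IV held 4 and 6 of the 12 peaks and 18 and 17 of the 78 genes, while chromosome I held 23 genes with 1 passing peak and chromosome II held 10 genes with none. Over the whole set, chromosomes I, II, III, IV and V held 86, 90, 93, 68 and 87 passing peaks and the X chromosome 124. The spread over chromosomes was not tested.

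The 6 peaks of lower signal lay mostly close to their starts. The peak of rpl-12, a protein at the base of the stalk that recruits translation factors, had a signal of 79.9 at −32 bp. Those of rps-1 and rpl-20 were alike in signal, 77.2 at −248 bp and 77.1 at −266 bp, and rps-22 had 68.5 at −83 bp. The peak given to rps-16, whose protein lies near the decoding site, had a signal of 65.0 and was the only one far from its gene, at −1820 bp. The peak of rpl-7A had the lowest signal of the 12, 62.3 at −59 bp, and the summits of rpl-12, rps-22 and rpl-7A were the only 3 within 100 bp of a start. By IDR, rps-16 stood just inside the threshold at 0.00994. The nearest outside it were rpl-22 at 0.0112, with a signal of 43.2, and the peak shared by rpl-39 and rps-30 at 0.0114, with a signal of 63.7, which exceeds that of rpl-7A.

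Most of the passing peaks were also within reach of another gene. Another protein-coding gene had a start in reach of 10 of the 12 peaks, and only those of rpl-3 and rpl-35 had no other. The ribosomal protein gene had the nearest start for 9 of the 12. The exceptions were rps-16, whose peak lay at −138 bp of fib-1, the gene of the rRNA methyltransferase fibrillarin, and at −182 bp of mut-15; rps-19, whose peak lay at −158 bp of hsr-9; and rpl-20, whose peak lay at −196 bp of Y17G9B.5. The peak of rpl-12 was also at −361 bp of lin-54, which encodes a DNA-binding protein of the DRM complex, and that of rps-1 at −520 bp of ifet-1, a translational repressor. The peak of rps-22 was also at −183 bp of polh-1, a DNA polymerase gene, that of rpl-7A at −195 bp of set-21 and that of rpl-15 at −460 bp of K11H12.8. With each peak given to the nearest start alone, 9 of the 78 genes had a passing peak, beside 1.47% of all protein-coding genes. With only the most upstream start of each gene it was 12, beside 1.96%.

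Many ribosomal protein genes faced a divergent neighbour, with and without a passing peak. A start on the opposite strand within 1000 bp upstream was annotated for 58.3% of the 12 genes with a passing peak and 60.6% of the 66 without one, and for 18.3% of all protein-coding genes. Among all protein-coding genes it was annotated for 36.1% of the 429 with a passing peak and 17.9% of those without one. With the neighbour sought within 500 bp the difference was 20.5 points in place of −2.27, and with passing peaks taken from the conservative set it was 7.58 points. Both settings were added after the data were seen, and with 12 genes the sign is not fixed. Several annotated starts were found for 4 of the 12 genes and 16 of the 66, beside 27.4% of all protein-coding genes. The median G and C content of their promoters was 37.3% and 35.7%, beside 34.6% for all protein-coding genes. Of all 429 protein-coding genes with a passing peak, 38.9% had several starts, and their median promoter content was 36.6%.

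The passing peaks of ribosomal protein genes lay upstream of a start, from −1820 to −32 bp, most of them within 500 bp. Their median position was −290.5 bp, and 11 of 12 (91.7%) lay in the promoter window, the stretch between −500 and 100 bp, beside 49.2% for the highest passing peak of all 429 protein-coding genes that have one. With that window alone 11 of the 78 genes had a passing peak, beside 1.08% of all protein-coding genes. Between −500 and −301 bp there were 4 of the 12, between −300 and −101 bp another 4, and between −100 and 100 bp another 3. Among the 65 ribosomal protein genes with candidates but no passing peak, the highest candidate lay in the promoter window for 47.7%, and 18 of them had it between −2000 and −1001 bp. Over all protein-coding genes with a candidate the share in the promoter window was 28.9%.

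**Figure D2:**
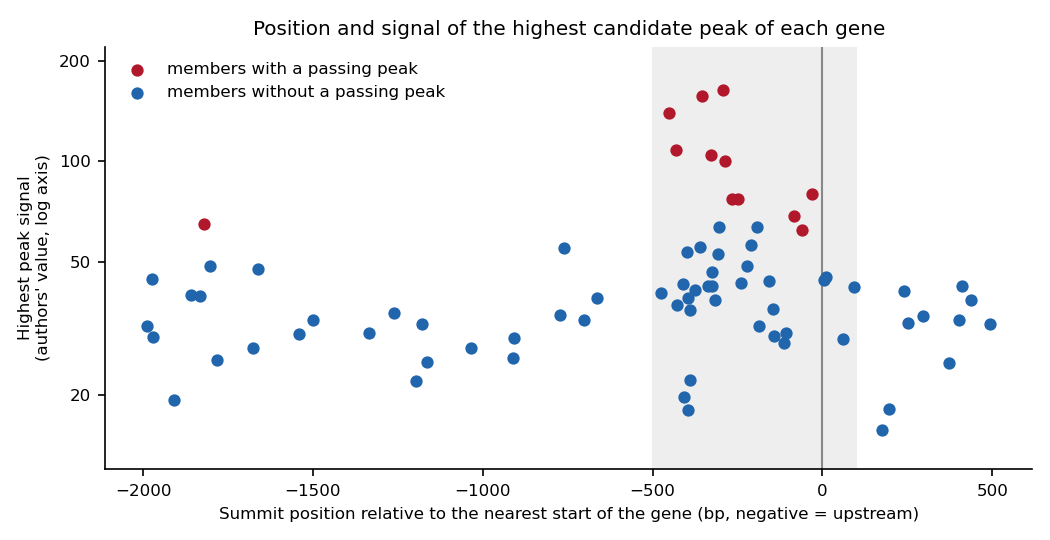
Signal of the highest candidate peak of each ribosomal protein gene (authors' value, log axis) against the position of its summit relative to the nearest start of the gene (bp, negative is upstream), with the promoter window in grey. Of the 12 red points, genes with a passing peak, 11 lie in the grey band and rps-16 lies at −1820 bp, while the blue points, genes without one, spread over the whole window.

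Genes of the large and small subunit did not differ detectably in how often they had a passing peak. The share was 12.8% of 47 large subunit genes (exact binomial 95% interval 4.83 to 25.7) and 19.4% of 31 small subunit genes (7.45 to 37.5), a difference of −6.59 points. The odds ratio, large over small, was 0.614 (95% interval 0.146 to 2.57; two-sided Fisher's exact test with genes as units, p = 0.526, the only comparison tested), so the interval allows a clear difference in either direction. In replicate 2's own set the order was the other way, 4 large against 2 small subunit genes, and at an IDR of at most 0.001 it was 3 against 0. The median highest signal was 37.8 for large subunit genes and 42.2 for small subunit genes, at percentiles 74.7 and 84.0 of all protein-coding genes with a candidate. The 3 highest signals all belonged to the large subunit and the next 3 to the small subunit.

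Most ribosomal protein genes had a highest signal above the median of all protein-coding genes. Over the 77 with a candidate, the highest signal ran from 15.7 to 163 with a median of 39.0, beside a median of 30.2 over 17997 protein-coding genes, and the median percentile was 77.6. At or above the 75th percentile were 42 of the 77 genes and at or above the 95th were 17, while 7 lay under the 25th. The 65 genes with candidates but no passing peak, which by construction miss the upper end, had a median signal of 35.9 and a median percentile of 69.6, with 47 of them at or above the 50th. Because the window of these genes often also serves a divergent neighbour, a candidate can count for both. The number of candidates a gene has also bears on its highest signal, and its part in these ranks was not tested.

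**Figure D3:**
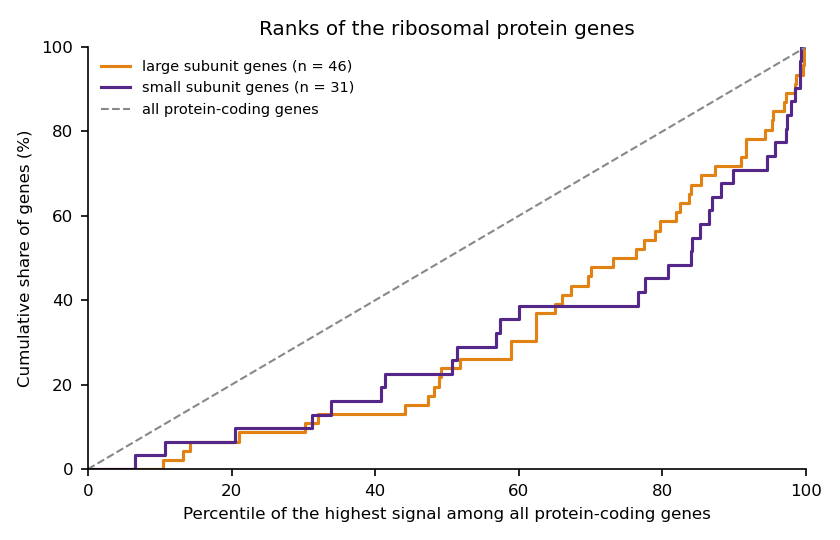
Cumulative share (%) of large subunit genes (orange, n = 46) and small subunit genes (purple, n = 31) against the percentile of their highest signal among all protein-coding genes with a candidate; the dashed diagonal is what all protein-coding genes give. Both curves run under the diagonal, with median percentiles of 74.7 and 84.0.

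Below the threshold, the 6 highest signals belonged to rpl-39 and rps-30, rps-20, rpl-11.2, rpl-36.A and rps-26. The genes rpl-39 and rps-30 are divergent neighbours and share 1 peak, at chrV:7776121-7776424, −194 bp from rpl-39 and −305 bp from rps-30. That peak passed in the authors' conservative set, with an IDR of 0.00595 in the conservative list, and not in the larger set. The highest peak of rps-20 had a signal of 56.2 and an IDR of 0.0268. That of rpl-11.2, on the X chromosome, had a signal of 55.5 and an IDR of 0.0751, and rpl-11.2 had a passing peak in replicate 2's own set alone. That of rpl-36.A had 55.1 with an IDR of 0.223, and that of rps-26 had 53.5 with an IDR of 0.0373. At the other end, rps-17 had a highest signal of 15.7, rpl-33 of 18.0 and rps-9 of 18.2, all under the lower quartile of 23.5 for all protein-coding genes.

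Genes that encode variants of the same protein had separate highest peaks or shared one. The pair rpl-11.1 and rpl-11.2 had highest signals of 48.5 and 55.5, rpl-24.1 and rpl-24.2 had 35.2 and 36.1, and rpl-25.1 and rpl-25.2 had 25.4 and 30.0, at separate peaks. The IDRs of these peaks ran from 0.0665 at rpl-11.1, whose peak lay at −1802 bp, to 0.550 at rpl-24.1. The neighbours rpl-41.1 and rpl-41.2 had the same highest peak, with a signal of 33.6, as did the divergent pair rpl-36 and rps-14, with 42.2. None of these was in the larger passing set.

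No passing peak of a ribosomal protein gene lay near a small RNA gene. Small RNA genes here are those of rRNA, tRNA, snoRNA and snRNA, and within 250 bp of one there were 0 of the 12 summits, beside 196 of the 548 passing peaks (35.8%). Leaving out all peaks near such genes therefore left the 12 genes in place, beside 1.64% of all protein-coding genes, which is 2.15% with those peaks kept. The 548 peaks were not limited to windows of protein-coding genes, as the 12 were. Among the 65 genes with candidates but no passing peak, 5 (7.69%) had their highest candidate near a small RNA gene, in each case a snoRNA gene, beside 1.73% of all protein-coding genes with a candidate for small RNA genes of any kind. SnoRNAs guide the chemical modification of ribosomal RNA, and many lie in introns of ribosomal protein genes. For rpl-4, rpl-6, rps-12 and rps-29 the snoRNA gene lay inside the ribosomal protein gene and outside its exons, and for rps-26 it lay outside the gene. The signals of these 5 ran from 34.4 at rpl-6 to 53.5 at rps-26.

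The authors' 4 thresholded sets, the larger and the conservative set for the series and 1 for each replicate, overlapped in part at these genes. A passing peak in all 4 sets was found at rpl-3, rpl-15, rpl-35, rps-24 and rps-28, which is 5 of the 78 genes, beside 0.556% of all protein-coding genes. The peaks of rps-1, rps-19 and rpl-20 passed in all but the set of replicate 2. Those of rpl-12 and rps-22 passed in both series sets and in neither replicate's own, that of rpl-7A in the larger set and that of replicate 1, and that of rps-16 in the larger set alone. Counting any of the 4 sets adds rpl-39, rps-30 and rpl-11.2, for 15 of the 78 genes, beside 2.52% of all protein-coding genes. The conservative set also named 12 ribosomal protein genes (beside 1.83%), 10 of them shared with the larger set, while replicate 1's set named 9 (beside 1.12%) and replicate 2's set 6 (beside 0.886%).

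In the replicates' own ranked lists, all 12 passing peaks had a higher signal in replicate 1. For rpl-3 the signals were 91.7 in replicate 1 and 71.3 in replicate 2, for rpl-15 they were 98.5 and 55.6, and for rpl-35 they were 87.6 and 50.1. For rps-28 they were 55.4 and 48.4, for rps-24 they were 55.7 and 55.2, and for rps-19 they were 50.9 and 41.7. The 6 highest of the 12 in the larger list were also the 6 highest in each replicate. For rpl-12 the signals were 42.5 and 36.0, for rps-1 they were 42.0 and 36.6, and for rpl-20 they were 43.6 and 37.3. For rps-22 they were 35.6 and 31.5, for rps-16 they were 44.2 and 24.4, and for rpl-7A they were 46.9 and 15.9. The last of these is the widest ratio of the 12, and the rpl-7A peak had an IDR of 0.602 in the conservative list. The median ratio of replicate 1 to replicate 2 was 1.20 over the 12 peaks, beside 1.12 over 534 passing peaks found in both lists, of which 61.8% were higher in replicate 1. The depth of the libraries is unknown, and its part in this difference was not tested.

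**Figure D4:**
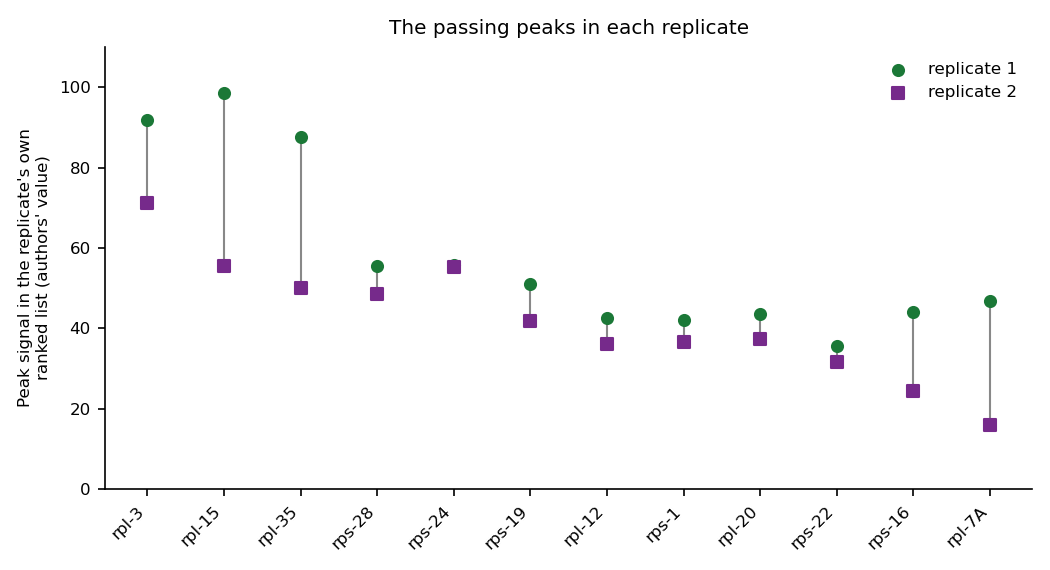
Signal of the 12 passing peaks in each replicate's own ranked list (authors' value), in the order of the larger list, with green circles for replicate 1, purple squares for replicate 2 and a grey line joining the pair. Replicate 1 is the higher in all 12, by little at rps-24 (55.7 and 55.2) and by most at rpl-15 (98.5 and 55.6).

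The conservative ranked list gives both replicates' signals per peak as a pair without naming them. The median absolute log2 ratio within the pair was 0.26 at the 12 passing peaks of ribosomal protein genes, from 0.01 at rps-24 to 1.56 at rpl-7A. It was 0.43 at the highest peaks of the 58 other ribosomal protein genes with a pair. Over all 548 passing peaks it was 0.37, over the 352 of them away from small RNA genes 0.44, and over all 71732 pairs 0.46. At 12 of 12 passing peaks the pair equalled the signals in the replicates' own lists within 1e-05. The median over large subunit genes was 0.43 (45 genes) and over small subunit genes 0.29 (25 genes). Passing peaks were picked by a measure of repeatability, so a small ratio there is in part given by the choice. The summits of the 2 replicates were apart by a median of 26.5 bp at the 12 peaks, from 1 bp at rps-19 to 80 bp at rps-1.

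The genes of cytosolic ribosomal proteins under other names are rla-0, rla-1 and rla-2, which encode the stalk proteins, and ubl-1 and ubq-2, which encode ribosomal proteins fused to a ubiquitin-like protein or to ubiquitin. None of these 5 had a passing peak, beside 2.15% of all protein-coding genes, and their highest signals were 35.8, 27.3, 29.6, 35.2 and 27.4. Of 23 annotated genes on a list for ribosome assembly and rRNA synthesis, 2 had a passing peak, fib-1 and pro-1, again beside 2.15% of all protein-coding genes. The peak of fib-1 is the one also given to rps-16, and that of pro-1 had a signal of 61.6 at −115 bp and an IDR of 0.00729. On the same list dkc-1, the gene of the pseudouridine synthase dyskerin, had 65.6 with an IDR of 0.0134 and did not pass. The 70 mitochondrial ribosomal protein genes (mrpl- and mrps-) have products that serve the separate ribosome of the mitochondrion. Of these, 4 had a passing peak, 5.71% (exact binomial 95% interval 1.58 to 14.0, counting error only), beside 2.15% of all protein-coding genes. Their median percentile was 47.6. No test was made of these lists against all protein-coding genes or against the 12 of 78 cytosolic genes.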

How the data were processed

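The 2 ChIP-seq libraries were deposited as narrowPeak lists on build ce11, per the labels. Per the labels' protocols, chromatin was sonicated and fragments were of 200 to 800 bp. The aligner, the caller and their settings were not given in the sources used here. Control libraries were not analysed here. The authors deposited for each peak a signal whose scaling is not stated, and the −log10 of the global IDR, which was turned back into an IDR. The conservative list holds the replicates' signals, as deposited by the authors, used as an unordered pair. Read counts were not used here, and the depth is unknown. Neither the comparison behind the larger list nor that behind each replicate's own list is stated.

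Genes came from Ensembl release 115 on WBcel235, which has ce11 coordinates. A gene had a passing peak when the summit of a peak in the thresholded set lay in its window. An overlap of at least 1 bp was used to match a gene's highest candidate to the thresholded sets and the other lists. Small RNA genes were counted within 250 bp of a summit. Windows for words and G and C content reached 50 bp to each side of a summit, and promoters were 601 bp. The 5 alternative cytosolic ribosomal names, the 25 names of the assembly list (rrbs-1 and tif-ia are not symbols of this annotation) and 6 words were set beside the genes. The genes named are all those with a passing peak in any set, the 6 highest and 3 lowest signals without one, rpl-28 and the lists; rpl-22, the paralogues, the genes with a shared peak, those beside snoRNA genes and the neighbours were named after their values were seen, and so were the recurring words and shared runs. The gene class, lists, 6 words and tests were chosen with earlier results of these data known. Scripts were tested on simulated data. The software was Python 3.11.15 (numpy 2.4.6, scipy 1.17.1, pandas 2.3.3, and matplotlib 3.10.9 for the figures).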

Additional observations from a re-analysis of the deposited data

How the results depend on the processing

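The count of 12 ribosomal protein genes with a passing peak came to between 6 and 9 when a single replicate's own set was used (9 without replicate 2, 6 without replicate 1) and to 3 at an IDR of at most 0.001. In the conservative set, with the promoter window, the most upstream start, the nearest start, at least 50% of a peak covered or no peaks near small RNA genes it was 9 to 12. The difference between large and small subunit genes of −6.59 points ranged from −2.26 without replicate 2 to 2.06 without replicate 1, and it was 6.38 at an IDR of at most 0.001; the cause was not tested, and no setting passed the threshold of 0.05. The median percentile of 77.6 was 83.0 in the promoter window, 75.7 without peaks near small RNA genes, and from 65.7 to 67.0 in the lists of the single replicates. The peaks of rpl-3, rpl-15 and rpl-35 passed in all 9 alternatives and that of rps-16 in 3. No paired analysis was possible because the series has 1 group and no second condition. The files give no read counts, so the depth that limits these calls is unknown.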
